A study of Homo sapiens with 18 samples.

Results

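The expression of 10 enzyme genes of amino acid and one-carbon metabolism was followed after knockdown of OFD1, a centrosomal and ciliary protein, in 3 pancreatic cancer cell lines. The genes were ASNS, PHGDH, PSAT1, PSPH, SHMT2, MTHFD2, ALDH1L2, ALDH18A1, PYCR1 and PCK2. They were chosen as enzymes known to respond to the transcription factor ATF4, with earlier results of these data already known. The choice was by symbol from the 26668 symbols of the expression table, and all 10 were found in it. PHGDH, PSAT1 and PSPH carry out the successive steps that turn a glycolytic intermediate into serine. SHMT2, MTHFD2 and ALDH1L2 pass the serine-derived carbon through the mitochondrial folate pathway, which supplies formate, glycine and NADPH. ASNS makes asparagine from aspartate, ALDH18A1 and PYCR1 catalyse the first and the last steps of proline synthesis from glutamate, and PCK2 is the mitochondrial phosphoenolpyruvate carboxykinase. When amino acids run short or the endoplasmic reticulum or the mitochondria are stressed, translation of ATF4 rises, and ATF4 binds the promoters of many such genes. Cancer cells with high levels of these enzymes depend less on serine and asparagine from outside.

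RNA-seq libraries came from PANC-1, MIA PaCa-2 and PaTu 8988T, established human pancreatic cancer lines, with 3 control and 3 knockdown libraries each, 18 in all. The knockdown groups, PANC-1 shOFD1, MIA PaCa-2 shOFD1 and PaTu 8988T shOFD1, carried a Tet-on shRNA against OFD1 and received doxycycline for 72 h. The titles of the controls name a control shRNA and their labels name no treatment, whereas the methods describe Tet-on-shOFD1 cells that received DMSO, so the make of the control cells was not settled here. Doxycycline was given to the knockdown cultures alone, and the series text places controls at the start and knockdown at the end of the 72 h, so an effect of the drug, of time in culture or of separately made cells cannot be told apart from that of the shRNA. The source labels of replicates 2 and 3 of PaTu 8988T name other lines, and the titles were followed. Nothing in the labels says that the replicates were separate cultures, so the p-values measure the spread between these libraries, which may be technical.

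The ASNS promoter holds the amino acid response element for which this gene is known, and it is shown here because ASNS had the largest fold changes of the 10 genes in MIA PaCa-2. The RefSeq promoter windows of 300 bases, 250 before and 50 after the transcription start on GRCh38.p14, covered 6 of the 10 genes: ASNS, PSAT1, PHGDH, MTHFD2, ALDH18A1 and PCK2. They were searched on both strands for TGATGNAA, the core of the element bound by C/EBP and ATF proteins. Of the 6 genes, 1 held a match, ASNS. Over all 27305 genes with a window, 4.46% held one. The stretch below reads 5′ to 3′ on the minus strand, at chr7:97872459-97872486, with the match in capitals.

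ASNS: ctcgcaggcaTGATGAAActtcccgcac

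The match lies from position -68 to -61 relative to the RefSeq start. GENCODE, on GRCh38, places the 5′ ends of some ASNS transcripts farther out, so that the stretch lies in the untranslated first exon of those transcripts. In the same annotation, ASNS covers chromosome 7 from 97852118 to 97872542 on the minus strand and PSPH lies on the same chromosome from 56011051 to 56051604, also on the minus strand. PHGDH lies on chromosome 1 (119648411 to 119744226, plus strand), PSAT1 on chromosome 9 (78297143 to 78330093, plus strand) and SHMT2 on chromosome 12 (57229327 to 57234935, plus strand). ALDH1L2 is also on chromosome 12 (105019784 to 105084577, minus strand) and MTHFD2 is on chromosome 2 (74198562 to 74217565, plus strand). ALDH18A1 lies on chromosome 10 (95605929 to 95656706, minus strand), PYCR1 on chromosome 17 (81932384 to 81942412, minus strand) and PCK2 on chromosome 14 (24094053 to 24110598, plus strand). GENCODE also lists pseudogenes of ASNS, PSAT1, PSPH and MTHFD2, and how reads that match both a gene and its pseudogene were counted is not given in the sources used here, so the values of these 4 genes are uncertain to that extent.

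Values are FPKM, the reads counted on a gene divided by its length and by the reads of the library. Between 32486479 and 39797537 reads were counted per library, as recovered from the steps of the values. OFD1 was lower in the knockdown libraries of every line. Its log2 fold change was -1.07 in PANC-1 (5.50, 5.12 and 5.67 FPKM in the controls, 2.80, 2.27 and 2.58 in the knockdown) and -1.10 in PaTu 8988T (2.14, 1.93 and 2.12 against 0.986, 0.894 and 0.854). In MIA PaCa-2 it was -0.61 (3.09, 2.27 and 3.20 against 1.76, 1.74 and 1.97, adjusted p = 0.0232), and -0.76 without control replicate 2 (adjusted p = 8.76e-05). Leaving out any one of the other 5 libraries of MIA PaCa-2 gave adjusted p from 0.0604 to 0.0896. That control library stands apart. Its reads differed from those of the other 2 controls by a chi-square of 126 and 128 per degree of freedom, against 3.01 to 12.1 in the 16 other pairs of replicates, and the MIA PaCa-2 values of the 10 genes are therefore also given without it. The keratins KRT8 and KRT18, markers of epithelial cells, were at 316 FPKM or more in all libraries, whereas KRT19 was at or near 0 in PaTu 8988T, and EPCAM and CDH1 in MIA PaCa-2. The summed level of 6 epithelial markers was 921 to 942 FPKM in PANC-1 shOFD1 libraries against 935 to 956 in the controls, 1359 to 1392 against 1616 to 2197 in MIA PaCa-2, and 838 to 909 against 1045 to 1069 in PaTu 8988T. KRT8 fell in MIA PaCa-2 (-0.75) and PaTu 8988T (-0.27) and rose in PANC-1 (0.26), KRT18 fell in PaTu 8988T (-0.27) and PANC-1 (-0.06), and KRT19 fell in PANC-1 from 178 to 89.2 FPKM. Values in brackets are log2 fold changes. Of 16 markers of immune, endothelial, fibroblast, acinar and islet cells, 4 to 7 were listed at 0 in every library of a group, among them CD3E, INS and CPA1 throughout. The summed level of the 16 was 58.6 to 61.7 FPKM in the PANC-1 shOFD1 libraries against 68.8 to 75.8 in the controls, and 13.2 to 14.9 against 16.7 to 17.3 in PaTu 8988T. In MIA PaCa-2 it was 104 to 107 against 55.9 to 73.7, where COL3A1, a fibrillar collagen, rose from 6.37 to 30.1 FPKM and PTPRC, a leukocyte phosphatase, from 3.51 to 6 FPKM (adjusted p = 0.0312). CD68, a lysosomal protein of macrophages, was there at 52.5 and 69.3 FPKM (adjusted p = 0.0528), and was called higher without control replicate 2 (0.58, adjusted p = 6.45e-07). The other fibroblast markers, COL1A1, DCN, LUM and PDGFRB, were at most at 0.114 FPKM in MIA PaCa-2. In PANC-1, COL3A1 also rose, from 10.2 to 17.8 FPKM (0.80, adjusted p = 1.17e-07). COL1A1 was at 22 to 26.6 FPKM there and fell (-0.23, adjusted p = 0.000334). COL3A1 was not called in PaTu 8988T (0.14, adjusted p = 0.266). In such bulk samples, fewer cells of a type and less RNA per cell cannot be told apart, and the part of these genes in the results below was not tested.

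With OFD1 knockdown, most of the 10 enzyme genes were higher in each line, and the sizes differed between lines. Each gene was compared between the knockdown and control libraries of a line on the log2(FPKM + 0.1) scale with limma, for genes with a mean of at least 1 FPKM in that line, with p-values adjusted by the Benjamini-Hochberg method over all genes tested. A gene was called at an adjusted p below 0.05, and past 2-fold where the fold change was also above 2 or below 0.5. On this scale the fold change of a low gene is understated. The minimum was set on the mean over control and knockdown libraries together, so a gene low in either group can pass it through the other. An exact two-sided permutation test of 3 libraries against 3 cannot give p below 0.1. Because the 10 genes were chosen with earlier results known, the shares of all genes are set beside their counts as a description.

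In PANC-1, 8 of the 10 genes were called higher and 1, PSPH, lower. Of all 10902 genes tested there, 40.1% were called higher and 32.2% lower. The median log2 fold change was 0.29 over the 10 genes and 0.06 over all genes. None of the 10 was past 2-fold in PANC-1, where 1.75% of all genes were higher and 4.84% lower past 2-fold. In MIA PaCa-2, 8 were called higher and 1, again PSPH, lower, against 18.7% and 21.7% of 10758 genes. ASNS, ALDH1L2, PHGDH and PCK2 were higher past 2-fold, 4 of 10, against 4.07% of all genes, and none was lower past 2-fold, against 3.68%. ASNS and ALDH1L2 had control means of 0.772 and 0.691 FPKM there, and passed the minimum only through their knockdown libraries. The median log2 fold change was 0.64 over the 10 genes and -0.03 over all genes, or 0.66 and -0.03 without control replicate 2. In PaTu 8988T, 8 of the 10 genes passed the filter on low values, 6 of these were called higher and none lower, against 20.9% and 18.5% of 10698 genes. PCK2 alone was past 2-fold, and 0.159% of all genes were higher and 0.841% lower past 2-fold. PCK2 had a control mean of 0.761 FPKM there, and passed the minimum only through its knockdown libraries. The median log2 fold change was 0.36 over the 8 tested genes and 0.03 over all genes.

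**Figure D1:**
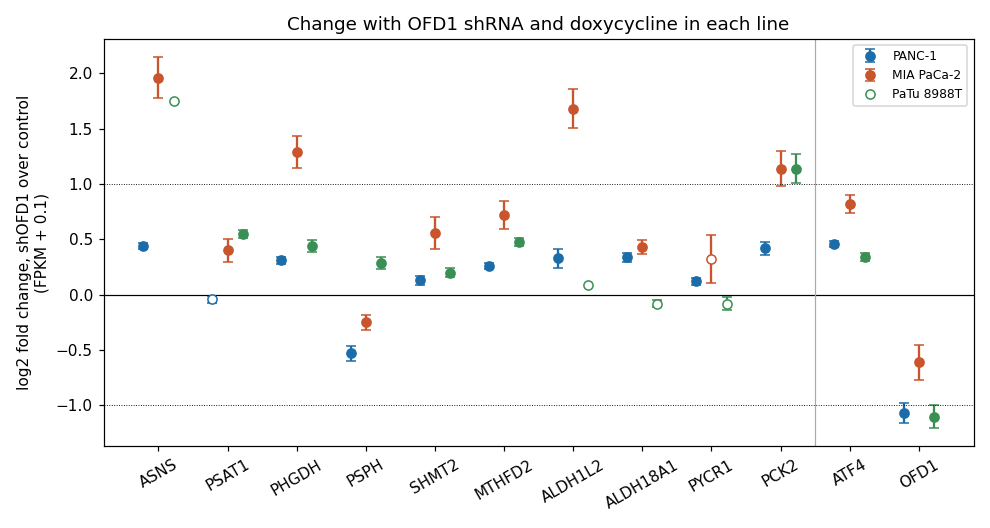
Log2 fold change of each enzyme gene, and of ATF4 and OFD1, in knockdown over control libraries of each line, on the log2(FPKM + 0.1) scale. Bars are limma standard errors, filled points passed an adjusted p below 0.05, open points did not or, without a bar, were not tested, and dotted lines mark 2-fold. The MIA PaCa-2 points of ASNS, ALDH1L2, PHGDH and PCK2 lie above 1. So do the PaTu 8988T points of PCK2 and of ASNS, which was not tested there. The points of PSPH lie below 0 in PANC-1 and MIA PaCa-2 and above 0 in PaTu 8988T.

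For 9 of the 10 genes, the 2 groups of PANC-1 libraries were fully apart, as they were for 75% of all tested genes. The number was 9 of 10 in MIA PaCa-2, against 59.3% of all genes, and 7 of the 8 tested genes in PaTu 8988T, against 51.9%. Of the 8 genes that passed the filter in every line, 4 were called higher throughout, PHGDH, SHMT2, MTHFD2 and PCK2, and none lower throughout. In PaTu 8988T, PCK2 passed the filter only through its knockdown libraries. Among the 9083 genes with at least 1 FPKM in every line, 2.74% were called higher in all 3 lines and 3.71% lower.

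The starting levels of the 10 genes spanned a wide range, and their order differed between the lines. In PANC-1 controls, PSAT1 was the highest with 93.1 ± 3.81 FPKM (SD, n = 3), followed by ASNS, MTHFD2, PYCR1, SHMT2, PHGDH, ALDH18A1, PSPH, PCK2 and ALDH1L2, the lowest with 2.91 ± 0.229 FPKM. In this order the libraries of PSAT1 and ASNS overlapped, as did those of ALDH18A1 and PSPH. In MIA PaCa-2 controls, PSAT1 was again the highest, with 85.5 ± 11.5 FPKM. MTHFD2, SHMT2, PYCR1 and ALDH18A1 followed, with libraries that overlapped between neighbours, and ASNS and ALDH1L2, also overlapping, were the lowest. In PaTu 8988T controls, ALDH18A1 was the highest with 63.2 ± 0.968 FPKM, and PCK2, ALDH1L2 and ASNS were the lowest. PSAT1 and SHMT2, PYCR1 and MTHFD2, and PSPH and PHGDH overlapped there. The PANC-1 values were computed with other gene lengths than those of the other lines for 7 of the 10 genes, so levels were set side by side between lines but not tested.

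ASNS, the asparagine synthetase, had the widest spread of starting levels. In PANC-1 it was at 84.3, 87.7 and 89.8 FPKM in the controls and at 118, 120 and 117 FPKM in the knockdown libraries. The groups did not overlap, and the log2 fold change was 0.44 (SE 0.0283, adjusted p = 3.69e-07). In MIA PaCa-2, ASNS was at 0.64, 1.01 and 0.665 FPKM in the controls and at 3.51, 3.13 and 3.05 FPKM after knockdown. These rest on 81 to 130 reads a control library and 378 to 440 reads a knockdown library, and the log2 fold change was 1.96 (SE 0.184, adjusted p = 0.000574), or 2.14 without control replicate 2. In PaTu 8988T, the control libraries had 0.117, 0.0526 and 0.109 FPKM, or 6 to 14 reads, and the knockdown libraries 0.587, 0.588 and 0.46 FPKM, or 54 to 70 reads. All 3 knockdown libraries were thus above all 3 controls, with a ratio of the mean FPKM of 5.87, but the gene was below the 1 FPKM minimum and was not tested. In a fit with no minimum, over 21498 genes, its log2 fold change was 1.75 (SE 0.194, adjusted p = 0.0023), which counts as past 2-fold.

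The genes of serine synthesis were all called higher in PaTu 8988T, and differed in their calls in the other lines. PHGDH, the dehydrogenase at the entry of the pathway, was higher in all 3 lines. In MIA PaCa-2 its controls were at 6.24, 8.78 and 6.47 FPKM and its knockdown libraries at 17.5, 17 and 17.7 FPKM, with no overlap and a log2 fold change of 1.29 (SE 0.142, adjusted p = 0.000957), or 1.44 without control replicate 2. In PANC-1 it went from 28.8, 29.1 and 29 FPKM to 35.2, 36.2 and 36.6 FPKM, a log2 fold change of 0.31 (SE 0.0316, adjusted p = 9.8e-06). In PaTu 8988T, values of 9.51, 9.74 and 10.1 FPKM in the controls and 12.6, 13.8 and 13.4 FPKM in the knockdown gave a log2 fold change of 0.44 (SE 0.052, adjusted p = 0.000209). The controls of PHGDH were closest together in PANC-1, and in each line every knockdown library lay above every control.

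PSAT1, the aminotransferase of the second step and among the highest of the 10 genes in every line, was higher in MIA PaCa-2 and PaTu 8988T and not called in PANC-1. PaTu 8988T controls had 57.2, 55.4 and 56.8 FPKM of PSAT1 and knockdown libraries 82.9, 85 and 80.7 FPKM, a log2 fold change of 0.55 (SE 0.0358, adjusted p = 6.97e-06). In MIA PaCa-2 it went from 92.7, 72.2 and 91.6 FPKM to 111, 115 and 110 FPKM, a log2 fold change of 0.40 (SE 0.107, adjusted p = 0.0253). Control replicate 2 was the low one, and its removal gave 0.28 (adjusted p = 1.82e-05), whereas without knockdown replicate 1, 2 or 3 the adjusted p was 0.0825, 0.0975 and 0.0819. In PANC-1 the libraries of PSAT1 overlapped, with 94.9, 88.8 and 95.8 FPKM against 91.1, 91.2 and 88.9 FPKM, and the log2 fold change was -0.04 (SE 0.0322, adjusted p = 0.256). Without PANC-1 control replicate 2 it was -0.08 (adjusted p = 0.0353), and with libraries rescaled by the median ratio -0.10 (adjusted p = 0.0191), both of which are calls of a lower level.

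PSPH, the phosphatase that completes serine synthesis, moved in opposite directions between the lines. It fell in PANC-1 from 19.4, 20.8 and 17.1 FPKM to 13, 13.4 and 13 FPKM, with a log2 fold change of -0.53 (SE 0.0651, adjusted p = 3.97e-05). It was also lower in MIA PaCa-2, with 24.4, 24.9 and 24.2 FPKM in the controls and 20.6, 20.9 and 20.2 FPKM in the knockdown, a log2 fold change of -0.25 (SE 0.0695, adjusted p = 0.0285). In PaTu 8988T, PSPH rose from 10.2, 9.44 and 10.6 FPKM to 12.4, 12.2 and 12.3 FPKM, with a log2 fold change of 0.29 (SE 0.0539, adjusted p = 0.00285). The groups did not overlap in any line. The MIA PaCa-2 call was kept without control replicate 2 (adjusted p = 0.000182) and lost on leaving out any one of the other 5 libraries of the line, with adjusted p from 0.0713 to 0.128.

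The mitochondrial folate enzymes were higher in every line in which they were tested. MTHFD2, a dehydrogenase and cyclohydrolase that is high in many tumours and in embryos, went from 67.6, 67.7 and 66.9 FPKM to 80.4, 80.2 and 81.3 FPKM in PANC-1, a log2 fold change of 0.26 (SE 0.0241, adjusted p = 5.47e-06). In PaTu 8988T it went from 25.4, 24.8 and 24.8 FPKM to 34.9, 34.8 and 34.7 FPKM, a log2 fold change of 0.48 (SE 0.036, adjusted p = 1.61e-05). In MIA PaCa-2, MTHFD2 was at 52.7, 38.7 and 53.1 FPKM in the controls and at 78.5, 79.4 and 78.6 FPKM in the knockdown, a log2 fold change of 0.72 (SE 0.129, adjusted p = 0.00572). Control replicate 2 was again the low library, and the value was 0.57 without it. The 3 knockdown libraries of MTHFD2 lay above the controls in each line.

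SHMT2, the mitochondrial serine hydroxymethyltransferase, feeds this pathway. PaTu 8988T controls had 54.3, 55.8 and 58.4 FPKM of SHMT2 and knockdown libraries 62.5, 66.4 and 64.7 FPKM, a log2 fold change of 0.20 (SE 0.0411, adjusted p = 0.0044). In PANC-1, 38.4, 39.9 and 40.6 FPKM stood against 41.2, 45.7 and 43.7 FPKM, a log2 fold change of 0.13 (SE 0.0422, adjusted p = 0.0164). This call of SHMT2 in PANC-1 was lost without control replicate 1 (adjusted p = 0.0617), without knockdown replicate 2 (adjusted p = 0.0624), with median-ratio rescaling (0.08, adjusted p = 0.143) and with no variance trend (adjusted p = 0.051). In MIA PaCa-2, controls of 41.6, 59.8 and 42.4 FPKM stood against 70.1, 69.1 and 69.9 FPKM, a log2 fold change of 0.56 (SE 0.144, adjusted p = 0.0218). Here control replicate 2 was the high library. Its removal gave 0.73 for SHMT2 (adjusted p = 5.64e-08), and without any one of the other 5 libraries the adjusted p was 0.0601 to 0.077.

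ALDH1L2, the mitochondrial enzyme that oxidises formyl-tetrahydrofolate and yields NADPH, was the lowest of the 10 genes in PANC-1 and MIA PaCa-2 controls. In MIA PaCa-2 it rose from 0.815, 0.511 and 0.745 FPKM to 2.48, 2.32 and 2.4 FPKM, a log2 fold change of 1.68 (SE 0.175, adjusted p = 0.0008), and 1.51 without control replicate 2. In PANC-1 it went from 2.84, 3.16 and 2.72 FPKM to 3.88, 3.54 and 3.57 FPKM, a log2 fold change of 0.33 (SE 0.086, adjusted p = 0.00645). In PaTu 8988T, ALDH1L2 was below the minimum, with 0.214, 0.225 and 0.161 FPKM in the controls and 0.224, 0.211 and 0.221 FPKM in the knockdown. The groups overlapped there, 49 to 65 reads against 60 to 68 reads, and a difference was not detectable at this depth (0.09, SE 0.145, adjusted p = 0.721 with no minimum).

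The proline genes were called higher in PANC-1, and neither was in PaTu 8988T. ALDH18A1, which makes the first intermediate from glutamate, went from 20.9, 20.7 and 21.6 FPKM to 27.6, 26.8 and 25.6 FPKM in PANC-1, a log2 fold change of 0.34 (SE 0.0404, adjusted p = 3.46e-05). In MIA PaCa-2 its libraries had 40.9, 42.2 and 40.3 FPKM in the controls and 56, 54.7 and 55.4 FPKM in the knockdown, a log2 fold change of 0.43 (SE 0.0635, adjusted p = 0.00282). This gene hardly differed in control replicate 2, and the value without that library was 0.45. In PaTu 8988T, where ALDH18A1 was the highest of the 10 genes, 62.9, 62.4 and 64.3 FPKM stood against 59, 60.7 and 59.5 FPKM. The knockdown libraries lay below the controls without overlap, but the log2 fold change of -0.08 was not called (SE 0.0341, adjusted p = 0.0853).

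PYCR1, the mitochondrial reductase of the last step to proline, was called in PANC-1, and in MIA PaCa-2 only without control replicate 2. In PANC-1 it went from 65.9, 65.9 and 66.5 FPKM to 71.2, 69.9 and 74 FPKM, a log2 fold change of 0.12 (SE 0.0287, adjusted p = 0.00433), which was 0.06 (adjusted p = 0.0874) with median-ratio rescaling. In PaTu 8988T, 24.7, 25.8 and 27.9 FPKM overlapped with 23.1, 25.3 and 25.8 FPKM, and the log2 fold change of -0.08 was not called (SE 0.0582, adjusted p = 0.311). In MIA PaCa-2, the controls of PYCR1 had 36.1, 62.5 and 35.2 FPKM and the knockdown libraries 52.8, 54.2 and 53.8 FPKM, so that 1 control lay above all knockdown libraries and 2 below. The log2 fold change was 0.32 (SE 0.217, adjusted p = 0.28). Without control replicate 2 it was 0.59 (SE 0.027, adjusted p = 3.07e-07).

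PCK2, which makes phosphoenolpyruvate from oxaloacetate in mitochondria, was the one gene past 2-fold in more than one line with the 1 FPKM minimum and the pseudocount of 0.1. In MIA PaCa-2 it rose from 18.2, 26.3 and 17.9 FPKM to 45.1, 43.9 and 46.6 FPKM, a log2 fold change of 1.14 (SE 0.155, adjusted p = 0.00206), and 1.32 without control replicate 2. In PaTu 8988T its controls had 0.623, 0.779 and 0.88 FPKM, or 72 to 102 reads, and its knockdown libraries 1.81, 1.69 and 1.86 FPKM, or 184 to 212 reads, which gave a log2 fold change of 1.14 (SE 0.132, adjusted p = 0.000179). In PANC-1, PCK2 went from 12.4, 11.6 and 13.2 FPKM to 17.4, 15.8 and 16.7 FPKM, a log2 fold change of 0.42 (SE 0.0577, adjusted p = 9.82e-05). The groups did not overlap in any line. With a pseudocount of 1, the log2 fold change of PCK2 was 1.11 in MIA PaCa-2 and 0.67 in PaTu 8988T, where it was then no longer past 2-fold.

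Without control replicate 2 of MIA PaCa-2, 9 of the 10 genes were called higher in that line and 1 lower, against 35.1% and 40% of all genes. The same 4 genes, ASNS, ALDH1L2, PHGDH and PCK2, were past 2-fold, against 4.03% of all genes. The standard error of every one of the 10 log2 fold changes was smaller without it. The values of ASNS, PHGDH, SHMT2, ALDH18A1, PYCR1 and PCK2 were larger and those of PSAT1, MTHFD2 and ALDH1L2 smaller, and PSPH was at -0.24. What sets this library apart was not tested.

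Differences in response between the lines were tested as interaction terms over all 18 libraries, for the 9083 genes with at least 1 FPKM in each line, which include 8 of the 10 genes and not ASNS or ALDH1L2. Of these 8, 6 differed between PANC-1 and MIA PaCa-2, against 43.4% of all genes. The number was 4 between PANC-1 and PaTu 8988T, against 35.8%, and 4 between MIA PaCa-2 and PaTu 8988T, against 52.9%. With control replicate 2 included, the libraries of MIA PaCa-2 spread more than those of the other lines. The MIA PaCa-2 replicate pairs without that library had a chi-square of 3.01 to 3.41 per degree of freedom. The tests were also run with a separate spread for each line, an alternative chosen after seeing the data. It gave 5, 6 and 3 of the 8 genes, against 33.5%, 58% and 45.3% of all genes. Without MIA PaCa-2 control replicate 2, the test with a shared spread gave 7 of 8 between PANC-1 and MIA PaCa-2, against 64.3%, and 7 of 8 between MIA PaCa-2 and PaTu 8988T, against 70.9%. The share of the 8 genes was below that of all genes for MIA PaCa-2 against PaTu 8988T with either spread, and above it in the other tests.

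With all libraries and a shared spread, PSPH was the one of the 8 genes whose response differed in all 3 pairs. Without MIA PaCa-2 control replicate 2, PSAT1, MTHFD2 and PYCR1 did so too, with differences for MIA PaCa-2 minus PaTu 8988T of -0.27, 0.10 and 0.67 (adjusted p = 5.64e-05, 0.0233 and 4.18e-08), against -0.15, 0.25 and 0.40 with it (adjusted p = 0.211, 0.084 and 0.117). The PSPH log2 fold change in PANC-1 was 0.82 below that in PaTu 8988T (difference -0.82, SE 0.0898, adjusted p = 3.53e-06), and that in MIA PaCa-2 differed from it by -0.54 (adjusted p = 0.000121). Between PANC-1 and MIA PaCa-2 the difference for PSPH was -0.28 (adjusted p = 0.0178). With separate spreads, all 3 differences of PSPH were kept, with adjusted p from 1.3e-07 to 0.0319. ALDH18A1 responded more in PANC-1 and in MIA PaCa-2 than in PaTu 8988T, by 0.42 (SE 0.057, adjusted p = 3.21e-05) and 0.51 (adjusted p = 2.14e-06). PHGDH responded more in MIA PaCa-2 than in either other line, with differences of -0.97 for PANC-1 minus MIA PaCa-2 (SE 0.129, adjusted p = 2.32e-05) and 0.85 for MIA PaCa-2 minus PaTu 8988T (adjusted p = 5.03e-05). The response of PCK2 was smaller in PANC-1 than in the other 2 lines (-0.72 and -0.73, adjusted p = 0.00441 and 0.00506), and between MIA PaCa-2 and PaTu 8988T its adjusted p was 0.987, with a standard error of 0.18 on the difference. PCK2 entered these tests only because its knockdown libraries lifted its PaTu 8988T mean past the minimum. PSAT1 responded less in PANC-1 than in MIA PaCa-2 (-0.44, adjusted p = 0.00211) and PaTu 8988T (-0.60, adjusted p = 0.000219). In a fit with no minimum, ASNS differed between PANC-1 and MIA PaCa-2 by -1.52 (SE 0.212, adjusted p = 5.25e-05) and between PANC-1 and PaTu 8988T by -1.32 (adjusted p = 0.000215). In that fit ALDH1L2 differed between PANC-1 and MIA PaCa-2 by -1.36 (SE 0.185, adjusted p = 4.37e-05) and between MIA PaCa-2 and PaTu 8988T by 1.59 (adjusted p = 5.57e-06).

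The paralogues of the 10 enzymes, most of which act in the cytosol or in another tissue, gave a different set of calls in each line. Of 9 listed, 6, 7 and 6 passed the filter in PANC-1, MIA PaCa-2 and PaTu 8988T. In PANC-1, 2 were called higher and 2 lower, in MIA PaCa-2 1 was higher and none lower, and in PaTu 8988T 3 were higher and none lower, against 40.1% higher and 32.2% lower among all genes in PANC-1, 18.7% higher with 21.7% lower for MIA PaCa-2, and 20.9% with 18.5% for PaTu 8988T. The median log2 fold changes of the tested paralogues were -0.10, -0.12 and 0.10. SHMT1, the cytosolic counterpart of SHMT2, went from 6.26 to 5.28 FPKM in PANC-1 (-0.24, adjusted p = 0.0111), from 34.4 to 43.4 FPKM in MIA PaCa-2 (0.34, adjusted p = 0.00815) and from 47.8 to 45.3 FPKM in PaTu 8988T (-0.08, adjusted p = 0.11). MTHFD1, the cytosolic counterpart of the mitochondrial folate enzymes, was not called in any line, with log2 fold changes of -0.09, -0.12 and 0.02 and adjusted p of 0.0741, 0.132 and 0.628, but was called lower in MIA PaCa-2 without control replicate 2 (-0.11, adjusted p = 0.00311). MTHFD1L, the mitochondrial formate-producing synthetase downstream of MTHFD2, was lower in PANC-1 (-0.36, adjusted p = 0.000303), not called in MIA PaCa-2 (-0.11, adjusted p = 0.404) and higher in PaTu 8988T (0.18, adjusted p = 0.0402). PYCR3, which also makes proline, was not called in any line with all libraries, and without that library it was lower in MIA PaCa-2 (-0.46, adjusted p = 0.000283). ASNSD1, named for an asparagine synthetase domain, was higher in PANC-1 (0.54, adjusted p = 4.66e-06) and PaTu 8988T (0.27, adjusted p = 0.00423), and in MIA PaCa-2 it had a log2 fold change of -0.39 (adjusted p = 0.0681), which was -0.54 and called without control replicate 2 (adjusted p = 2.13e-05). MTHFD2L was tested in MIA PaCa-2 only (0.54, adjusted p = 0.205). PCK1, the cytosolic carboxykinase of liver and kidney, was listed at 0 in all libraries of MIA PaCa-2 and PaTu 8988T, and ALDH1L1, the cytosolic counterpart of ALDH1L2, had group means below 0.1 FPKM in all lines.

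ATF4 itself was higher in all 3 lines. It went from 64.5, 64.7 and 63.7 FPKM to 88.4, 87.5 and 89.4 FPKM in PANC-1 (0.46, SE 0.0244, adjusted p = 8.82e-08) and from 35.2, 35.3 and 35.8 FPKM to 44.6, 45.9 and 43.9 FPKM in PaTu 8988T (0.34, SE 0.0362, adjusted p = 0.000119). MIA PaCa-2 libraries had 27.1, 31 and 27.4 FPKM against 50.1, 49.9 and 51.2 FPKM (0.82, SE 0.0795, adjusted p = 0.000629), with 0.88 without control replicate 2. These are RNA levels of ATF4, a factor regulated mainly at translation, and its protein was not measured here. Of the 18 genes listed for the ATF4 pathway, ATF4 among them, 17 were tested in each line. In PANC-1, 14 were called higher and 2 lower, in MIA PaCa-2 12 higher and none lower, and in PaTu 8988T 10 higher and 2 lower, against 40.1% higher and 32.2% lower among all genes in PANC-1, 18.7% higher with 21.7% lower for MIA PaCa-2, and 20.9% with 18.5% for PaTu 8988T. Their median log2 fold changes were 0.53, 0.82 and 0.26. CHAC1, which degrades glutathione, rose from 6.49 to 15 FPKM in PANC-1 (1.20) and from 0.512 to 4.06 FPKM in PaTu 8988T (2.76). It also rose past 2-fold in MIA PaCa-2 (1.44). SESN2, a sensor of leucine that restrains mTORC1, rose from 13.7 to 32.3 FPKM in PANC-1 (1.23) and from 7.58 to 33.6 FPKM in MIA PaCa-2 (2.15). SESN2 was past 2-fold in PaTu 8988T as well (1.24). TRIB3, a pseudokinase that dampens ATF4, rose from 33.3 to 68.3 FPKM in PANC-1 (1.03) and also rose in MIA PaCa-2 (1.80). In PaTu 8988T it was not called (-0.08, adjusted p = 0.245). ATF3, a stress-induced transcription factor, rose from 1.45 to 7.9 FPKM in MIA PaCa-2 (2.38) and from 13.2 to 30.1 FPKM in PaTu 8988T (1.19). Its rise was also past 2-fold in PANC-1 (1.37). NUPR1, a stress-induced chromatin protein, was at 0.272 and 2.68 FPKM in MIA PaCa-2 control and knockdown libraries (2.93). It was also called higher in PANC-1 (0.70) and was below the 1 FPKM minimum in PaTu 8988T. DDIT4, an inhibitor of mTORC1, fell from 286 to 140 FPKM in PaTu 8988T (-1.03) and in PANC-1 (-0.27), and rose from 114 to 198 FPKM in MIA PaCa-2 (0.86, adjusted p = 0.0208).

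Genes of folate and methionine metabolism outside the 10 were called in both directions. Of 22 listed, 21 were tested in PANC-1 with 5 higher and 10 lower, 20 in MIA PaCa-2 with 5 higher and 6 lower, and 21 in PaTu 8988T with 8 higher and 3 lower. The shares of all genes were 40.1% higher and 32.2% lower in PANC-1, 18.7% higher with 21.7% lower for MIA PaCa-2, and 20.9% with 18.5% for PaTu 8988T. Their medians were -0.17, -0.15 and 0.07. CTH, which releases cysteine in the transsulfuration pathway, rose from 4.42 to 8.99 FPKM in PANC-1 (1.01, adjusted p = 5.4e-06) and from 2.52 to 11.6 FPKM in MIA PaCa-2 (2.17, adjusted p = 0.000156). It was also higher in PaTu 8988T (0.80, adjusted p = 0.000448). GLDC, the decarboxylase of the glycine cleavage system, rose from 5.1 to 12.1 FPKM in MIA PaCa-2 (1.24, adjusted p = 0.000805) and fell in PaTu 8988T (-0.27, adjusted p = 0.00537). TYMS, the thymidylate synthase of DNA precursor synthesis, fell from 79.1 to 37.4 FPKM in PANC-1 (-1.08, adjusted p = 1.31e-09) and in MIA PaCa-2 (-0.38, adjusted p = 0.00369), and rose in PaTu 8988T (0.18, adjusted p = 0.00236). No gene of this list was past 2-fold in PaTu 8988T.

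Among 17 other genes of glutamate, aspartate and proline metabolism, 4 of 13 tested were higher and 3 lower in PANC-1. In MIA PaCa-2, 4 of 14 were higher and 1 lower, and in PaTu 8988T 4 of 13 were higher and 3 lower, with medians of 0.03, 0.28 and 0.04. The shares of all genes called higher and lower were those given for the folate and methionine list. ASS1, the argininosuccinate synthase that consumes aspartate, rose from 12.8 to 30.1 FPKM in PANC-1 (1.23, adjusted p = 1.47e-08) and from 5.59 to 13.6 FPKM in MIA PaCa-2 (1.27, adjusted p = 0.000364), and fell from 3.93 to 3.03 FPKM in PaTu 8988T (-0.37, adjusted p = 0.0044). GPT2, a mitochondrial alanine aminotransferase, rose from 9.31 to 19.5 FPKM in MIA PaCa-2 (1.07, adjusted p = 0.000531). It was also higher in PANC-1 (0.37, adjusted p = 0.00134) and was not called in PaTu 8988T (0.03, adjusted p = 0.683).

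Of 12 amino acid transporters, 3 of 10 tested were higher and 7 lower in PANC-1. In MIA PaCa-2, 4 of 11 were higher and 2 lower, and in PaTu 8988T 8 of 11 were higher and none lower, with medians of -0.09, 0.30 and 0.27. The shares of all genes were 40.1% higher and 32.2% lower in PANC-1, 18.7% higher with 21.7% lower for MIA PaCa-2, and 20.9% with 18.5% for PaTu 8988T. SLC7A11, the cystine importer, fell from 7.7 to 2.33 FPKM in PANC-1 (-1.69, adjusted p = 1.82e-08). It was not called in MIA PaCa-2 (0.64, adjusted p = 0.0887) or PaTu 8988T (0.27, adjusted p = 0.0508). Without MIA PaCa-2 control replicate 2, SLC7A11 was called higher in that line (0.34, adjusted p = 0.0226). SLC36A1, a lysosomal exporter of small amino acids, fell in PANC-1 (-1.21, adjusted p = 2.75e-05) and in MIA PaCa-2 (-1.51, adjusted p = 0.000629), and rose in PaTu 8988T (0.26, adjusted p = 0.0392). SLC43A1, a carrier of large neutral amino acids, rose from 1.19 to 4.26 FPKM in MIA PaCa-2 (1.77, adjusted p = 0.000342). SLC1A4, a carrier of serine and alanine, rose there from 2.16 to 4.65 FPKM (1.07, adjusted p = 0.00091). SLC1A4 was also higher in PANC-1 (0.16, adjusted p = 0.0175) and PaTu 8988T (0.58, adjusted p = 0.00207).

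The cytosolic aminoacyl-tRNA synthetases, all 20 of which were tested in each line, were called higher in 10, 10 and 12 cases and lower in 7, 7 and 1 in PANC-1, MIA PaCa-2 and PaTu 8988T, beside the same shares of all genes. Their medians were 0.09, 0.30 and 0.15. GARS1, which charges glycine, rose from 140 to 281 FPKM in MIA PaCa-2 (1.01, adjusted p = 0.000202), and was no longer past 2-fold there without control replicate 2 (0.95). It was also higher in PANC-1 (0.60, adjusted p = 3.33e-09) and PaTu 8988T (0.41, adjusted p = 0.000112). FARSB, a subunit of the phenylalanine enzyme, fell from 20.9 to 8.31 FPKM in MIA PaCa-2 (-1.31, adjusted p = 0.000718). It also fell in PANC-1 (-0.83, adjusted p = 1.25e-06) and was not called in PaTu 8988T (-0.02, adjusted p = 0.832). Without MIA PaCa-2 control replicate 2, the counts of higher and lower genes in that line were 14 and 1 for the ATF4 pathway and 6 and 11 for folate and methionine. They were 9 and 4 for glutamate, aspartate and proline, 5 and 2 for the transporters, 12 and 8 for the synthetases and 1 and 3 for the paralogues, against 35.1% and 40% of all genes. The MIA PaCa-2 rises and falls of the named list genes kept their direction and their call at an adjusted p below 0.05.

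The 10 genes were also compared by their pattern over the 18 libraries, each gene being centred on its mean within a line, for the 8 genes tested in all 3 lines. The libraries share the knockdown and control grouping and depth, and the correlations are a description. The correlation of a gene with the mean of the other 7 was 0.95 for PHGDH, 0.94 for PCK2, 0.90 for SHMT2, 0.81 for MTHFD2, 0.70 for PSAT1, 0.61 for ALDH18A1, 0.44 for PYCR1 and -0.32 for PSPH. Over the 18 libraries PSPH thus ran against the others, although it was called higher in PaTu 8988T (0.29). PYCR1 followed the others least among the rest. MIA PaCa-2 control replicate 2 was included in all these correlations. Its PYCR1 value was 62.5 FPKM, against 36.1 and 35.2 FPKM in the other controls of that line. Among 8987 genes outside all lists, those most like the mean of the 8 enzymes were UQCRC2, a core subunit of respiratory complex III (Pearson r = 0.972), HERPUD1, a protein of endoplasmic reticulum degradation (0.968), GADD45A, a growth arrest gene (0.953), and ILRUN (0.953). RHBDD2 (0.944), CITED2, a transcriptional coregulator (0.943), PRKCA, a protein kinase C (0.931), and ADM, the peptide hormone adrenomedullin (0.928), followed. HERPUD1 had log2 fold changes of 0.31, 0.85 and 0.55 in PANC-1, MIA PaCa-2 and PaTu 8988T, and ADM of 0.78, 2.59 and 0.66.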

How the data were processed

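The authors aligned reads from an Illumina NovaSeq with HISAT2, counted them with HTSeq-count and deposited FPKM values for 26668 gene symbols in 18 libraries. They tested genes with DESeq2 (values not used here). The submitters' processing notes name the builds GRCm38, mm10 and hg38 with no role. The methods name TRIzol and a VAHTS kit, the labels an RNeasy column and a SMARTer kit. Groups came from sample titles. FPKM values are not counts, so limma 3.58.1 (R 4.3.3) was run on log2(FPKM + 0.1) (eBayes with a variance trend, Benjamini-Hochberg adjustment) for genes with a mean of at least 1 FPKM in a line, and in 1 fit of all libraries for differences between lines. The fits were tested on simulated data. Reads per gene were recovered from the steps of the values and used for depth and chi-square comparisons of replicates only.

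The 10 genes and all lists were chosen with earlier results of these data known. Genes named were the 10, their paralogues, OFD1, ATF4, up to 3 genes of each other list and line with the smallest p past 2-fold, and the 8 genes most like the mean of those of the 10 tested in every line. COL3A1, DCN, LUM and the other markers were named after their values were seen. Some genes under these rules are not reported here. Alternatives were another pseudocount (1), another minimum (5 FPKM, or none), median-ratio rescaling, no variance trend, a replicate block, leaving out each library and, added later, separate spreads. Gene positions are from GENCODE, promoter windows from RefSeq (GRCh38.p14). No columns were left unused.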

Additional observations from a re-analysis of the deposited data

Results flagged for a closer look

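The response to knockdown differed between lines, by a test of the difference itself, in 14 cases among the 8 genes tested in all 3 lines. Each value is the log2 fold change in the first line minus that in the second, from 1 fit of all 18 libraries. For PANC-1 minus MIA PaCa-2 it was -0.97 for PHGDH, -0.72 for PCK2, -0.47 for MTHFD2, -0.44 for PSAT1, -0.43 for SHMT2 and -0.28 for PSPH. For PANC-1 minus PaTu 8988T it was -0.82 for PSPH, -0.73 for PCK2, -0.60 for PSAT1 and 0.42 for ALDH18A1. For MIA PaCa-2 minus PaTu 8988T it was 0.85 for PHGDH, 0.51 for ALDH18A1, 0.36 for SHMT2 and -0.54 for PSPH.

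SHMT2 was past the threshold in these tests (adjusted p = 0.0195 against PANC-1 and 0.0369 against PaTu 8988T) but not with a separate spread for each line (adjusted p = 0.0608 and 0.0844). MTHFD2 and PYCR1 did not pass between PANC-1 and PaTu 8988T in the shared fit (adjusted p = 0.161 and 0.497), but did with separate spreads (0.000382 and 0.0188) and without MIA PaCa-2 control replicate 2 (3.12e-05 and 0.0107). Without that library, the SHMT2 differences were -0.60 and 0.53 (adjusted p = 6.41e-08 and 1.72e-07), and PYCR1 differed between PANC-1 and MIA PaCa-2 by -0.47 (adjusted p = 5.57e-06) and between MIA PaCa-2 and PaTu 8988T by 0.67 (adjusted p = 4.18e-08). In every pair of lines, the groups differ in the line and in the spread of its libraries. In MIA PaCa-2 that spread came mostly from control replicate 2. The cause of the differences was not tested.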

How the results depend on the processing

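No log2 fold change of the 10 genes or of OFD1 changed sign under any alternative run. The genes called higher in PANC-1, 8 with the settings of the report, were 6 with median-ratio rescaling, as SHMT2 and PYCR1 lost their calls. The count of genes called lower in PANC-1, 1 with the settings of the report, was 2 with median-ratio rescaling and 1 to 2 on leaving out each library. In MIA PaCa-2 that count was 0 to 1 on leaving out each library, and the genes called higher numbered 6 to 9. The genes higher past 2-fold in MIA PaCa-2 numbered 2 with a minimum of 5 FPKM, which removes ASNS and ALDH1L2 from the test. In PaTu 8988T, where PCK2 alone was past 2-fold, the count was 0 with a pseudocount of 1, 0 with a minimum of 5 FPKM and 2 with no minimum, which adds ASNS. Genes differing between MIA PaCa-2 and PaTu 8988T numbered 3 to 7 on leaving out each of the 18 libraries, with 7 reached without MIA PaCa-2 control replicate 2.

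Of 9 pairs of control and knockdown libraries with the same replicate number, 1 had deviations correlated above 0.1 (range -0.11 to 0.13). Differently numbered pairs reached -0.23 and 0.23 in PaTu 8988T, so this does not settle whether same-numbered libraries were paired. With a replicate block, the genes called higher were 8, 7 and 6 in PANC-1, MIA PaCa-2 and PaTu 8988T, and the genes called lower in MIA PaCa-2 were 0. There PSAT1 (adjusted p = 0.0516) and PSPH (adjusted p = 0.118) lost their calls. Between lines, the block gave 6, 4 and 4 genes, as without it. ASNS in PaTu 8988T controls rests on 6 to 14 reads a library, so its fold change there has a wide counting error.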
